A study of Mus musculus with 6 samples.

Results

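A group of 10 marker genes of liver sinusoidal endothelium, out of 55367 gene names, is described here across 6 whole-liver RNA libraries. They were chosen by gene name from the deposited count table, as genes of sinusoidal scavenging and uptake (Stab2, Stab1, Lyve1, Clec4g, Fcgr2b, Oit3 and Dnase1l3) and of the vascular endothelium in general (Kdr, Cdh5 and Pecam1). All 10 were present and all 10 had enough counts to be tested. The study compared 3 liver libraries of mice homozygous for a disrupted Lmln gene (Lmln-/-, here Lmln-KO) with 3 of wild-type (WT) mice, all of the C57BL/6J strain. Lmln encodes invadolysin, a metalloprotease. The mice were 46 weeks old, except that Lmln-KO replicate 3 was 39 weeks old. The labels give neither sex nor how the allele was made, and they number the replicates without stating that each is a different animal, so p-values measure the spread between these libraries.

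Liver sinusoids are lined by a specialised endothelium whose cells are perforated by open pores and lack a continuous basement membrane, so plasma reaches the hepatocytes directly. These cells are among the most active scavengers of the body: through stabilins, mannose receptor and Fc receptors they clear waste macromolecules, hyaluronan and immune complexes from blood. They also carry the general equipment of endothelium, such as the receptor for vascular endothelial growth factor and the cadherin of endothelial junctions. In a whole-liver library their transcripts are mixed with those of far more abundant hepatocytes, and fewer endothelial cells cannot be told apart from less RNA per endothelial cell.

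Gene counts summed to between 17388360 and 22494696 per library, and the 10 genes together took between 0.0582% and 0.0767% of them. Levels are counts-per-million (CPM) after TMM normalization, which scales libraries so that most genes match. The hepatocyte transcript Alb lay between 45714 and 74329 CPM in the 6 libraries. Lmln itself had 2 to 12 counts in the Lmln-KO libraries and 39 to 80 in WT; it did not pass in edgeR (log2 difference -3.72, SE 0.582, Benjamini-Hochberg adjusted p 0.933) but did in DESeq2 (adjusted p 2.49e-06). Xist, transcribed from the inactive X chromosome, was high (at least 1878 CPM) in 1 Lmln-KO library, replicate 3, and in WT replicates 2 and 3, here the Xist set. Y-linked genes were high (summed level at least 216 CPM) in the other 3 libraries, here the Y set. Genotype differences are therefore given also inside each set, and from a model with a term for the set (the sex-marker term). Lmln-KO replicate 3 is at once the only Lmln-KO library with Xist and the only one from a 39-week-old animal, so these cannot be told apart.

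None of the 10 genes was called different between the genotypes. In edgeR's quasi-likelihood test across 18703 genes, 0 of the 10 passed a Benjamini-Hochberg adjusted p of 0.05, where 0% of all tested genes passed, and 0 of the 10 had an unadjusted p under 0.05, where 1.52% of all tested genes had one and were higher in Lmln-KO and 3.14% had one and were lower. DESeq2 called 0 of the 10 (0.118% of all genes), and with the sex-marker term edgeR and DESeq2 again called 0 of the 10 (0.00535% and 0.16% of all genes). The 10 log2 differences, Lmln-KO minus WT, ran from -0.46 for Lyve1 to 0.04 for Clec4g, with a median of -0.05, beside a median of -0.004 over all tested genes. A p above the threshold does not show equal levels, so each difference is given with its 95% interval, taken from edgeR's standard error (SE) and degrees of freedom. For 9 of the 10 genes, all but Lyve1, the interval lay within a 1.5-fold change in either direction; over all tested genes, many of them with far fewer counts, 40.9% had an interval that narrow.

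The stabilins, Stab2 and Stab1, are large scavenger receptors of the sinusoidal wall, and Stab2 is the main hyaluronan clearance receptor of liver. Stab2 (chromosome 10, 86841198 to 87008025, GRCm38, minus strand) measured 144, 159.7 and 195 CPM in Lmln-KO replicates 1, 2 and 3 and 166, 176 and 155 CPM in WT replicates 1, 2 and 3. Lmln-KO replicate 3 was the highest and replicate 1 the lowest of all 6, so the Lmln-KO libraries enclosed the WT range. The means were 166 ± 26.2 against 165 ± 10.3 CPM (SD, n = 3), a log2 difference of 0.005 (SE 0.137, edgeR adjusted p 0.997), and the interval of the change ran from -19.4% to 24.8%. Stab1 (chromosome 14, 31139013 to 31168641, minus strand) measured 106, 107 and 129 CPM in Lmln-KO and 117, 119 and 131 CPM in WT. Here 2 Lmln-KO libraries lay below every WT library and the remaining one, replicate 3, lay just under the highest WT library. The log2 difference was -0.11 (SE 0.119, edgeR adjusted p 0.936), with an interval from -23.1% to 12.4%. Exons of Stab1 overlap those of Nt5dc2, and exons of Stab2 those of the predicted gene Gm16268, and the counting was not set to use strand.

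The start regions of the stabilin pair are shown because they are the scavenger receptors the results begin with and because promoters of endothelial genes are known for sites of ETS factors, whose core is GGAA. The RefSeq windows (GRCm38.p6, 250 bases before to 50 after the start) were at hand for 5 of the 10 genes, namely Stab2, Stab1, Clec4g, Fcgr2b and Kdr. Capitals mark the letters GGAAG, or CTTCC for the other strand. Cores of GGAA without that last G, which both windows also hold, were neither marked nor counted. Both sequences are written 5′ to 3′ on the gene's own strand, at chr10:87007893-87008192 and chr14:31168592-31168891, both on the minus strand.
Stab2: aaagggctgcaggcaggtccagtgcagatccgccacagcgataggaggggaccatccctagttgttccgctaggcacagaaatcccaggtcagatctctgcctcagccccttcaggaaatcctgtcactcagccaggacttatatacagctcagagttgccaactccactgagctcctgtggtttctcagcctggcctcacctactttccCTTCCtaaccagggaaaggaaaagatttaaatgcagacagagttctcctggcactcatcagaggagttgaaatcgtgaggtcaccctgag
Stab1: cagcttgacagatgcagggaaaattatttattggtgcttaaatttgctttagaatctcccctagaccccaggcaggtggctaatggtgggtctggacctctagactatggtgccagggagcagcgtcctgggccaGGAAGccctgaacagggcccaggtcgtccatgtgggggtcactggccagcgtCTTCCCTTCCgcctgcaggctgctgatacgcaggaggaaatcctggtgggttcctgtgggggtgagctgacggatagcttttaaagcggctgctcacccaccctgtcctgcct
The Stab2 window holds 1 match and the Stab1 window 3, and each of the 5 windows holds at least 1. That is a description only, since 71.4% of the 32851 RefSeq windows of this length hold one. The letters AGATAA, a form of the site bound by GATA factors (TTATCT on the other strand), were in 0 of the 5 windows and in 11.2% of all windows. Other forms of that site were not searched for.

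Lyve1, a second hyaluronan receptor, shared by sinusoidal and lymphatic endothelium, was the least abundant and the most variable of the 10. Lyve1 (chromosome 7, 110850607 to 110863239) measured 3.60, 3.97 and 5.33 CPM in Lmln-KO and 3.92, 3.53 and 10.4 CPM in WT. WT replicate 3 lay far above the other 5 libraries, which ran from 3.53 to 5.33 CPM, with 180 counts against 66 to 125 in the others. The log2 difference was -0.46 (SE 0.432, edgeR adjusted p 0.933), with an interval from -64.2% to 47.2%. It turned to 0.21 without WT replicate 3, so its sign rests on that library. Of 4 tested genes of a lymphatic list, 2 were highest in that same library. Flt4, the receptor for VEGF-C, which is also on the list of further sinusoidal genes, measured 56.8 CPM against 44.8 to 50.3 CPM elsewhere. Mmrn1 measured 1.61 CPM against 0.192 to 1.51 CPM, from 28 counts against 4 to 32. Prox1, a lymphatic transcription factor that hepatocytes also express, was not highest there, at 249.7 CPM against 179.7 to 401 CPM. Nor was Reln, at 166 to 256 CPM over the 6 libraries. Prox1 and Reln made up most of the list's sum. The list summed to between 400.0 and 619.7 CPM in Lmln-KO and between 552 and 626 CPM in WT, with a median difference of -0.16 (-0.24 to -0.11), and 0 passed; the range after this and later list medians is that over the 6 fits that leave out 1 library each. Pdpn and Ccl21a, further lymphatic markers, had at most 8 and 4 counts in any library and were not tested. The part of lymphatic RNA in the Lyve1 level was not tested.

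Clec4g is the C-type lectin also called LSECtin, and Fcgr2b the inhibitory Fc gamma receptor by which sinusoidal cells take up immune complexes. Both had overlapping groups and were not called. Clec4g (chromosome 8, 3707064 to 3720651) measured 38, 35.5 and 47.7 CPM in Lmln-KO and 36.3, 38 and 43.5 CPM in WT, and its lowest and highest libraries were both Lmln-KO. The log2 difference was 0.04 (SE 0.137, edgeR adjusted p 0.976), with an interval from -17.2% to 28.1%. Fcgr2b (chromosome 1, 170958617 to 170976547) measured 48.9, 48.2 and 65.3 CPM in Lmln-KO and 51.7, 64.6 and 56.1 CPM in WT. Again the extremes at both ends were Lmln-KO libraries. The log2 difference was -0.09 (SE 0.148, edgeR adjusted p 0.952), with an interval from -25.6% to 19.4%. The 6 genes of the Fc gamma receptor list, Fcgr2b among them, had a median of -0.01 (-0.12 to 0.12), and the 5 tested liver C-type lectins, with Clec4g, one of 0.04 (-0.09 to 0.09). In either list 0 passed, and both medians changed sign between fits. Among their members, Fcgr1 and Fcgr3, activating Fc receptors, had differences of 0.38 and 0.06, and Fcer1g, the signalling chain they share, one of -0.26. The lectins Clec2d and Cd209b had differences of 0.26 and 0.19. B cells also express Fcgr2b. The 4 tested B cell genes summed to between 2.86 and 3.55 CPM in Lmln-KO and between 4.16 and 17.1 CPM in WT. Their median difference was -1.60 (-1.94 to -0.89, the last without WT replicate 3). An unadjusted edgeR p under 0.05 was found for 4 of 4, all lower, beside 3.14% of all tested genes, and 0 passed. Ms4a1, a defining gene, measured 0.865, 0.472 and 0.512 CPM in Lmln-KO and 0.950, 1.82 and 3.11 CPM in WT. The part of B cells in the Fcgr2b level was not tested. Exons of Clec4g and Fcgr2b overlap those of the predicted genes Gm16553 and Gm38204.

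Oit3, a protein with a zona pellucida domain, and Dnase1l3, a secreted nuclease that digests extracellular chromatin, complete the scavenging group. Oit3 (chromosome 10, 59422958 to 59441778) measured 23.8, 26.8 and 35.2 CPM in Lmln-KO and 29.6, 31.2 and 37.1 CPM in WT. As with Stab1, Lmln-KO replicates 1 and 2 lay below every WT library and replicate 3 lay inside the WT range. The log2 difference was -0.19 (SE 0.163, edgeR adjusted p 0.933), with an interval from -32.4% to 13.8%. Dnase1l3 (chromosome 14, 7964533 to 7994573) measured 67.0, 77.2 and 84.1 CPM in Lmln-KO and 78.8, 76.5 and 73.0 CPM in WT. The means were both 76.1 CPM (SD 8.58 in Lmln-KO and 2.94 in WT, n = 3), a log2 difference of 0.0004 (SE 0.112, edgeR adjusted p 0.9997), with an interval from -16.3% to 19.5%.

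Of the 3 general endothelial genes, Kdr and Cdh5 had coefficients of variation over the 6 libraries of 5.91% and 4.8%, and Pecam1 one of 10.5%. Kdr, the main signalling receptor for vascular endothelial growth factor (chromosome 5, 75932827 to 75978458), measured 94.9, 98.7 and 110.2 CPM in Lmln-KO and 107, 97.2 and 101 CPM in WT. Cdh5, the cadherin of endothelial junctions (chromosome 8, 104101625 to 104144511), measured 38.9, 43.5 and 40.7 CPM in Lmln-KO and 43.9, 41.3 and 39.8 CPM in WT. In both genes the groups overlapped over most of their range. The log2 differences were -0.01 for Kdr (SE 0.104, edgeR adjusted p 0.994, interval -15.8% to 17.5%) and -0.02 for Cdh5 (SE 0.095, edgeR adjusted p 0.981, interval -15.4% to 14.5%).

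Pecam1, the adhesion molecule CD31 that platelets and leukocytes carry as well, was the single one of the 10 whose groups did not overlap. Pecam1 (chromosome 11, 106654217 to 106750628) measured 21.8, 20.3 and 22.8 CPM in Lmln-KO and 23.5, 23.3 and 27.6 CPM in WT, so the highest Lmln-KO library lay just below the lowest WT library. The log2 difference was -0.20 (SE 0.111, edgeR adjusted p 0.933), with an interval from -26.9% to 4.31%. A count of 1 in 10 without overlap and lower in Lmln-KO stands beside 5.73% of all tested genes (4.61% did not overlap and were higher). The gap closed when library totals alone set the scale, which left 0 of the 10 without overlap. Inside the Y set the difference was -0.16 and inside the Xist set -0.15. Of 5 platelet genes, 2 were tested, Itga2b and Ppbp; they reached at most 3.80 and 0.831 CPM and had differences of -0.24 and -0.11 (their median, -0.18, ran from -0.37 to 0.05), while Gp1bb had 0 counts in every library. The B cell median given above was negative too, but unlike Pecam1 it differed between the sets. It was -0.326 inside the Y set and -2.00035 inside the Xist set. Ms4a1, among these B cell genes, had only 10 to 54 counts per library. The part of platelets and B cells in the Pecam1 level was not tested.

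**Figure D1:**
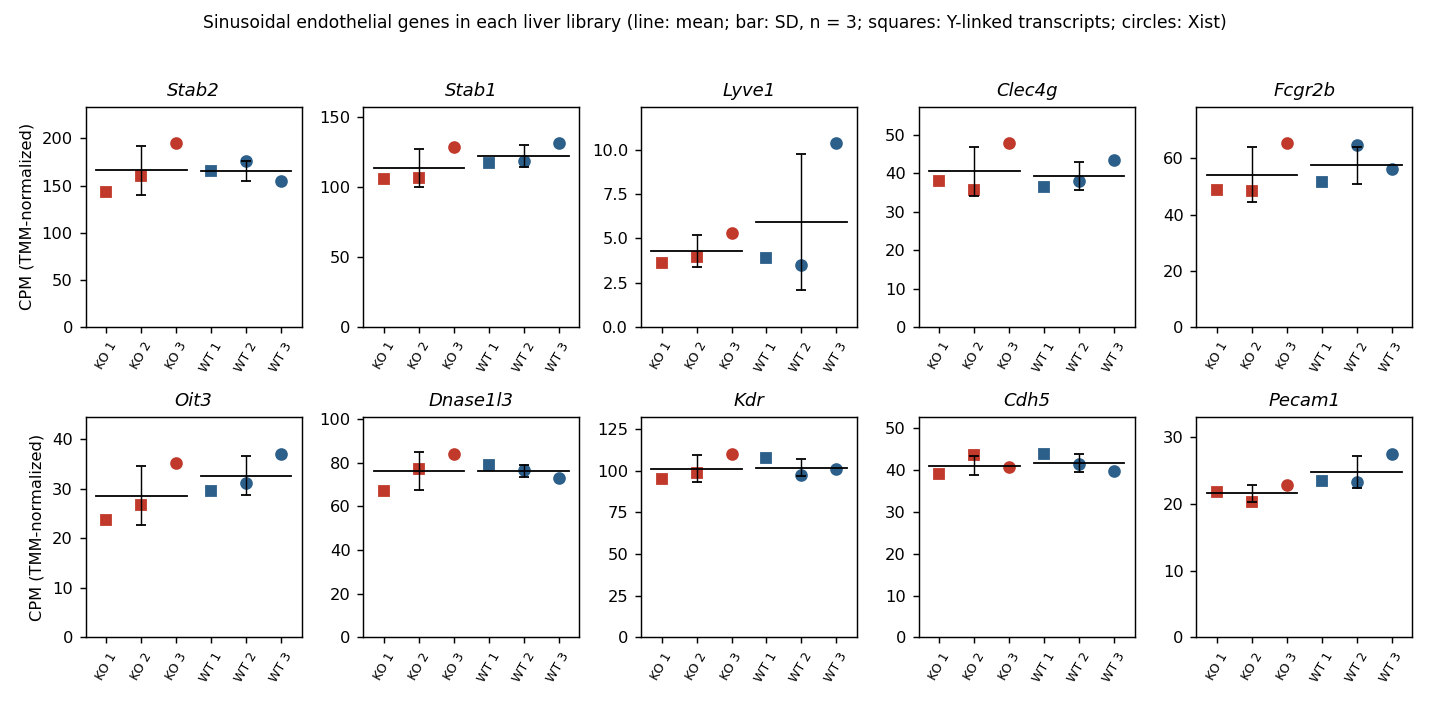
TMM-normalized CPM (vertical axes, from 0) of each of the 10 genes in the 3 Lmln-KO (red) and 3 WT (blue) libraries; lines are group means, bars SD (n = 3), squares mark the Y set and circles the Xist set. The groups overlap in every panel but that of Pecam1, and WT replicate 3 stands out for Lyve1 at 10.4 CPM.

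**Figure D2:**
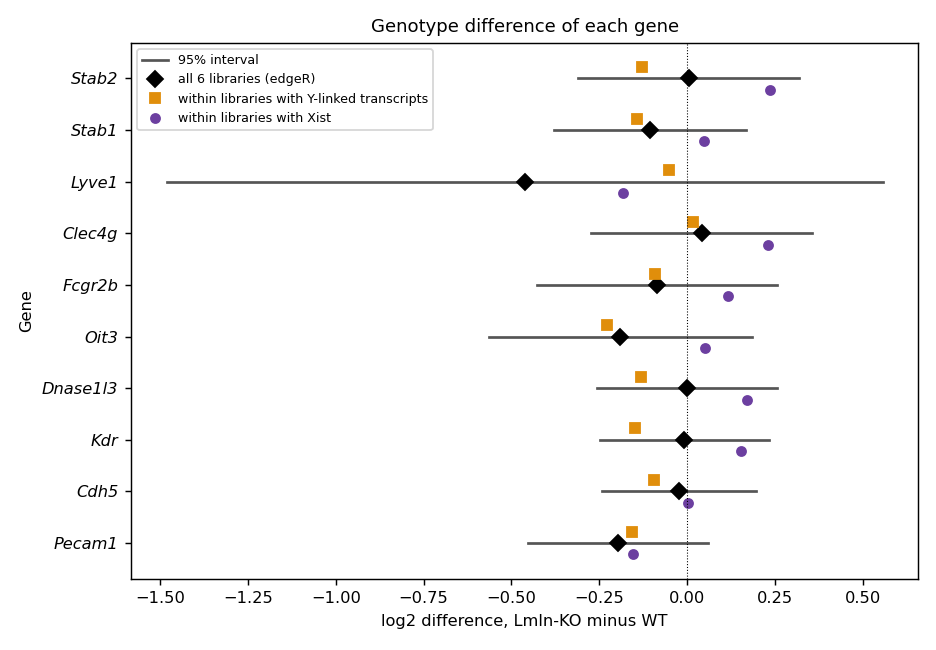
Log2 difference, Lmln-KO minus WT (horizontal axis), of each gene over all 6 libraries with its 95% interval (diamonds and lines, edgeR), and inside the Y set (squares) and the Xist set (circles), as differences of mean log2 CPM. Every interval includes 0, and that of Lyve1 is the widest, from -1.48 to 0.56.

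Levels of most of the 10 genes were lowest in Lmln-KO replicate 1 or 2 and highest in Lmln-KO replicate 3 or WT replicate 3. Lmln-KO replicate 1 had the lowest level of 6 of the 10 genes and Lmln-KO replicate 2 that of 3, while Lmln-KO replicate 3 had the highest level of 5 and WT replicate 3 that of 4. Relative to each gene's mean over the 6 libraries, the 10 genes lay on average 0.18 and 0.11 log2 units lower in Lmln-KO replicates 1 and 2, 0.15 higher in Lmln-KO replicate 3, and -0.03, -0.01 and 0.18 from it in WT replicates 1, 2 and 3. Lyve1 carried much of the last value: without it the other 9 genes lay -0.15, -0.09 and 0.15 from their means in Lmln-KO and -0.002, 0.03 and 0.07 in WT, and 4 of the 10 were below their own mean in WT replicate 3. So the lowest and the highest of the libraries, without Lyve1, were both Lmln-KO. The coefficient of variation over the 6 libraries ran from 4.8% for Cdh5 to 51.8% for Lyve1, with a median of 10.6%, beside a median of 12.7% for the 11060 tested genes with an average log2 CPM of 2 to 8.

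**Figure D3:**
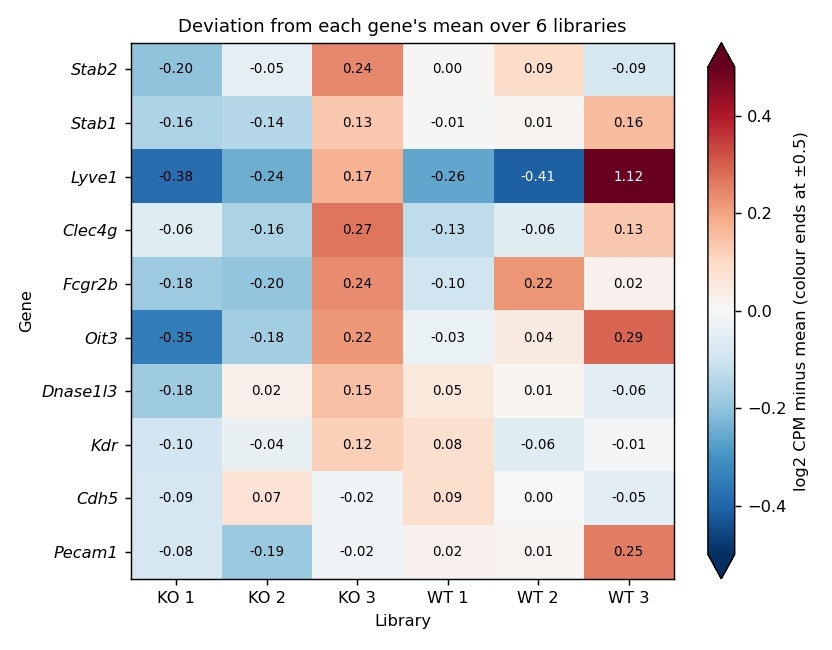
Deviation of log2 CPM from the gene's own mean over the 6 libraries (colour and printed values), for each gene (rows) and library (columns: KO, Lmln-KO). Lmln-KO replicate 1 is below the mean in 10 of 10 genes and Lmln-KO replicate 3 above it in 8 of 10.

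Split by sex-chromosome transcripts, most differences had another sign in the Xist set than in the Y set. In the Y set, where a single WT library stands for its genotype, 9 of the 10 genes had a negative difference, with a median of -0.13. In the Xist set, where a single Lmln-KO library does, 8 of the 10 had a positive one, with a median of 0.08. Since 1 library enters the difference of all 10 genes in each set, these are not 10 separate observations. For 4 of the 10, Stab2, Fcgr2b, Dnase1l3 and Kdr, the signs were opposite with no overlap inside either set, beside 18.2% of all tested genes (9.3% with the negative sign in the Y set, as here). A test of the difference between the sets, the genotype by sex-marker interaction in edgeR, called 0 of the 10 and 0% of all tested genes; the smallest unadjusted p of the 10 was 0.201, for Stab2, and 2.43% of all tested genes had one under 0.05. Leaving out Lmln-KO replicate 3 made all 10 differences negative, with a median of -0.16, and again none passed. In that comparison of 2 libraries with 3, 4 of the 10 were without overlap and lower in Lmln-KO, beside 13.4% of all tested genes.

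Pairs of the genes followed each other across libraries to different degrees. Over the 6 libraries, where the values of a library share its depth and its mix of cells, 36 of the 45 pairs had a positive Pearson r of log2 CPM, with a median of 0.54. The closest pair was Stab1 and Oit3 (r = 0.98), followed by Stab2 and Dnase1l3 (r = 0.91). Cdh5 went least with the others, at r = -0.54 with Clec4g. By the rule for likeness, the 6 genes outside the group whose log2 CPM most resembled the mean pattern of the 10, among 11577 candidates, were Clec14a, Mob3a, Rnf13, Nck2, Dcdc2a and Rpusd4, with r between 0.98 and 0.996 over 6 libraries. Clec14a, the closest, is itself a lectin-like membrane protein of endothelium. Clec14a measured 14.8, 16.7 and 26.7 CPM in Lmln-KO and 21.0, 20.6 and 23.1 CPM in WT, so it too was lowest in Lmln-KO replicate 1 and highest in Lmln-KO replicate 3. Over so few libraries and so many candidates high values of r arise readily, and no p is given.

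Per kilobase of exon in the deposited annotation, Stab2 was the most abundant and Lyve1 the least. Stab2 led with a mean of 18.9 ± 2.03 CPM per kilobase (SD over 6 libraries), followed by Clec4g at 16.2 ± 1.94 and Dnase1l3 at 14.8 ± 1.11. Stab2 was above Clec4g in 6 of 6 libraries although their ranges overlapped, whereas Clec4g was above Dnase1l3 in 4 of 6. Dnase1l3 and the next gene, Stab1, did not overlap, although Oit3, further down, reached 13.3 in WT replicate 3. Stab1 (11.5 ± 1.05), Kdr (11.2 ± 0.664), Oit3 (11 ± 1.80), Cdh5 (9.84 ± 0.472) and Fcgr2b (9.64 ± 1.32) followed, and of these neighbours each was above the next in only 3 or 4 of 6 libraries. Pecam1 (3.73 ± 0.392) lay below all of them without overlap, and Lyve1 (1.75 ± 0.908) was below Pecam1 in 6 of 6 libraries, with overlapping ranges.

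Set against other endothelial genes, the distance of the sinusoidal genes overlapped between the genotypes. A list of 23 endothelial lineage genes, all tested, summed to between 674 and 769 CPM in Lmln-KO and between 695 and 771 CPM in WT. The 7 scavenging genes lay on average 1.92 ± 0.176 log2 units above this list in Lmln-KO and 1.95 ± 0.0962 above it in WT (SD, n = 3), a difference of -0.03 that ran from -0.12 to 0.05 when single libraries were left out. In single libraries that distance was 1.77, 1.88 and 2.12 in Lmln-KO and 1.85, 1.96 and 2.04 in WT, so the Lmln-KO values enclosed the WT values. The 3 general endothelial genes lay 1.92 ± 0.0302 above the list in Lmln-KO and 1.92 ± 0.0539 in WT, a difference of -0.004.

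The lineage list itself had a median log2 difference of -0.08 (-0.16 to -0.01, the last without WT replicate 3), with 9 genes positive and 14 negative, and 0 passed in edgeR. Tek and Tie1, the receptors of the angiopoietin system, and Erg, an endothelial transcription factor, had differences of 0.07, -0.08 and -0.14. The smallest p among its named genes belonged to Egfl7, a secreted endothelial factor, and S1pr1, the receptor for sphingosine 1-phosphate. Egfl7 measured 28.6, 30.0 and 29.1 CPM in Lmln-KO and 39.1, 32.7 and 36.3 CPM in WT, a log2 difference of -0.30 (SE 0.102), and S1pr1 measured 89.7, 73.9 and 88.3 CPM in Lmln-KO and 71.8, 65.3 and 65.9 CPM in WT, one of 0.31 (SE 0.111). The groups did not overlap in either gene, in opposite directions, and neither passed (edgeR adjusted p 0.933). Over the list of 23, 4 genes were without overlap and lower in Lmln-KO and 1 higher, beside 5.73% and 4.61% of all tested genes. An unadjusted edgeR p under 0.05 was found for 2 lower and 1 higher, beside 3.14% and 1.52% of all tested genes.

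Of 16 further sinusoidal genes, 0 passed in edgeR. In that test 1 higher and 1 lower had an unadjusted p under 0.05, beside 1.52% and 3.14% of all tested genes. The median difference was -0.06 (-0.10 to 0.04, and 0.001 without WT replicate 3). Gata4, the transcription factor that specifies sinusoidal endothelium, measured 26.0, 36.3 and 24.4 CPM in Lmln-KO and 23.4, 21.0 and 18.9 CPM in WT, without overlap and higher in Lmln-KO (log2 difference 0.45, SE 0.167, edgeR adjusted p 0.933). Maf, another sinusoidal transcription factor, and Mrc1, the mannose receptor, had differences of 0.04 and -0.05. Bmp6, the endothelial signal that drives hepatocyte hepcidin, measured 6.63, 6.23 and 5.97 CPM in Lmln-KO and 6.77, 8.83 and 15.0 CPM in WT (log2 difference -0.70, SE 0.279, edgeR adjusted p 0.933). Without WT replicate 3, the highest library, the difference was -0.31.

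Genes of vessels outside the sinusoid, and of the endothelium near the central vein, gave no call either. The 12 tested genes of continuous and large vessels had a median of -0.04 (-0.16 to 0.04), with Vwf, the carrier of clotting factor VIII, at -0.05, Cd34 at -0.50 and Plvap, the diaphragm protein, at -0.04. Without WT replicate 3 Vwf was at -0.30 and Cd34 at -0.14. Efnb2, an arterial ephrin, had a difference of -0.76, or -0.42 without that library, with overlap. Cd34 was at most 2.42 CPM in any library. Esm1, a secreted proteoglycan of activated endothelium, had a difference of -2.69 (SE 1.09), and it measured 1.39, 0.0945 and 0.426 CPM in Lmln-KO against 4.04, 0.749 and 7.60 CPM in WT, with overlap. Central vein and pericentral endothelium is known for Wnt signals to neighbouring hepatocytes. Its 6 genes had a median of 0.32 (0.15 to 0.47, the first without WT replicate 3), 5 of them positive, with Rspo3 at 0.17. That median was 0.31 inside the Y set and 0.34 inside the Xist set. Wnt2, Wnt9b and Kit had differences of 0.54, 0.43 and 0.42, or 0.18, 0.16 and 0.27 without WT replicate 3. The groups overlapped in all 6 genes and 0 passed.

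Signals that act on these cells were tested from the lists as well, and 0 genes passed in any. For the VEGF system, 9 tested genes had a median of -0.01 (-0.03 to 0.04), which was the value of Kdr, itself on the list. The ligands Vegfa, Vegfb and Vegfc were at 0.03, -0.05 and -0.30 and the co-receptor Nrp1 at 0.22. The 5 angiopoietin genes, Tek and Tie1 of the lineage list among them, had a median of -0.05 (-0.12 to 0.01), with Angpt1, the agonist ligand, at 0.10. Angpt2, the antagonist ligand, measured 1.92, 2.22 and 1.71 CPM in Lmln-KO and 2.43, 2.57 and 4.09 CPM in WT, without overlap (log2 difference -0.64, SE 0.28, and -0.36 without WT replicate 3). The 10 tested Notch genes had a median of -0.11 (-0.24 to -0.06), with the ligands Dll1 and Jag1 at -0.12 and 0.20. Their median was 0.06 inside the Y set, -0.03 inside the Xist set and -0.003 with the sex-marker term. Dll4, the endothelial Notch ligand, measured 6.05, 5.86 and 7.59 CPM in Lmln-KO and 10.3, 7.97 and 14.3 CPM in WT, without overlap (log2 difference -0.74, SE 0.232, edgeR adjusted p 0.933, and -0.49 without WT replicate 3), and Hes1, a Notch target in many cell types, had one of 0.48 (SE 0.198). The 9 tested genes of BMP9 and its receptor ALK1 had a median of -0.25 (-0.47 to 0.03, the last without WT replicate 3). That median was 0.06 inside the Y set and -0.003 inside the Xist set. Gdf2, which encodes BMP9, was at -0.35, Bmp10, a related ligand, at -0.25, Acvrl1, the receptor, at 0.14 and Id3, a target of BMP signals, at 0.81 with overlap. Among 9 partners of endothelial junctions the median was -0.01 (-0.05 to 0.03). The catenins Ctnnd1, Ctnnb1 and Jup, which bind cadherins, were at -0.07, -0.01 and -0.04, and Tjp1, a scaffold of tight junctions, at -0.15 without overlap. Jam2, a junctional adhesion molecule, measured 26.5, 21.9 and 20.5 CPM in Lmln-KO and 14.7, 20.2 and 10.7 CPM in WT (log2 difference 0.59, SE 0.227, and 0.40 without WT replicate 3).

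Of 4 tested genes that respond to blood flow, 2 had an unadjusted edgeR p under 0.05 and were lower in Lmln-KO. Over all tested genes 3.14% did so. None of the 4 passed, and the median was -0.34 (-0.47 to -0.23). That median was 0.06 inside the Y set and -0.57 inside the Xist set. Klf2, the main flow-induced transcription factor of endothelium, measured 6.44, 7.09 and 7.46 CPM in Lmln-KO and 8.61, 13.1 and 14.1 CPM in WT, a log2 difference of -0.77 (SE 0.201, edgeR adjusted p 0.933, DESeq2 adjusted p 0.423). Klf4, its relative, measured 2.40, 1.89 and 2.60 CPM in Lmln-KO and 2.91, 3.74 and 3.40 CPM in WT (log2 difference -0.54, SE 0.23). Both were without overlap and lower in Lmln-KO, and neither gene is particular to endothelium. Nos3, the nitric oxide synthase that flow also induces, had a difference of 0.19 with overlap. The Klf2 difference was -0.35 inside the Y set and -0.85 inside the Xist set.

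**Figure D4:**
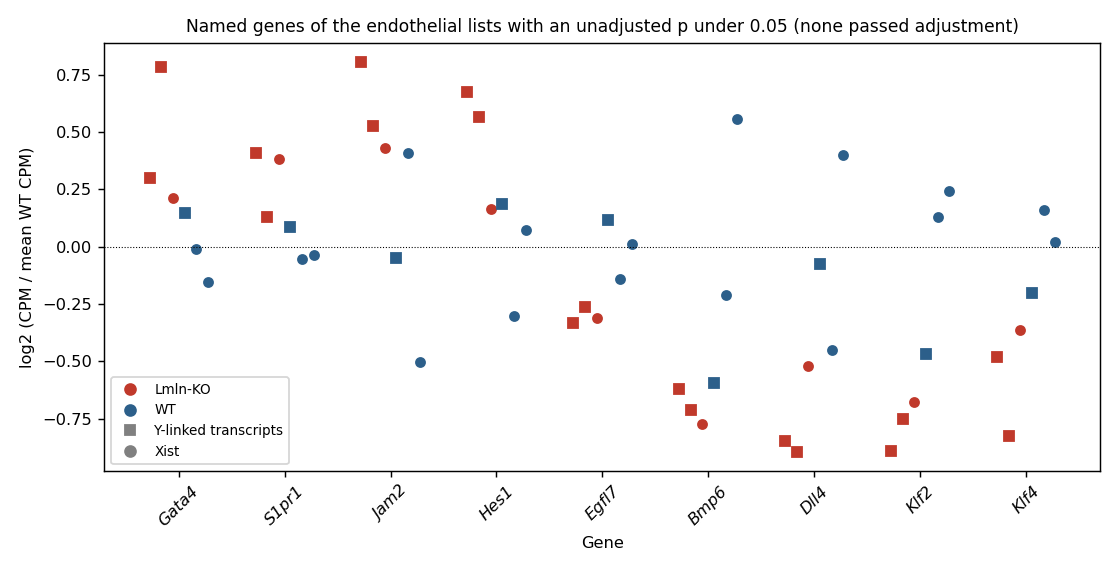
CPM in each library relative to the WT mean (vertical axis, log2) of the 9 named genes of the endothelial lists with an unadjusted p under 0.05 in edgeR, in Lmln-KO (red) and WT (blue); squares mark the Y set and circles the Xist set. The genes were picked for that p and none passed adjustment; 4 were higher and 5 lower in Lmln-KO, and Hes1 alone overlapped.

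Markers of the other cells of liver stood as follows beside these values. The 10 Kupffer cell genes summed to between 286 and 338 CPM in Lmln-KO and between 314 and 413 CPM in WT. All had negative differences, with a median of -0.14 (-0.20 to 0.03, the last without WT replicate 2). That median was 0.05 inside the Y set and -0.23 inside the Xist set. Clec4f and Vsig4, which define these macrophages, had differences of -0.11 and -0.05, C1qa one of -0.15 and Adgre1 one of -0.51 without overlap. Stab1 and Fcgr2b can be expressed by macrophages too. The 8 stellate cell genes summed to between 288 and 424 CPM in Lmln-KO and between 327 and 526 CPM in WT, with a median of -0.29 (-0.43 to -0.17, the last without WT replicate 3). Inside the Y set their median was -0.10, inside the Xist set -0.20, and with the sex-marker term -0.17. Of them 7 were negative, and Lrat, a stellate cell marker, had a difference of 0.05 with overlap. The 8 tested hepatocyte genes had a median of -0.10 (-0.18 to -0.04), with Ttr at -0.08, Apoa1 at -0.11 and Tat, an enzyme of tyrosine breakdown, at -0.94 with overlap. Alb, the albumin gene, was lower in every Lmln-KO library than in any WT library (log2 difference -0.34, SE 0.21). The 5 cholangiocyte genes had a median of 0.17 (-0.24 to 0.32, the first without WT replicate 3). None of these genes passed in edgeR, and their part in the endothelial levels was not tested. No marker named here was at 0, though Krt19, of the cholangiocyte list, had only 4 to 36 counts per library. The share of counts from mitochondrially encoded genes was 7.04% in Lmln-KO replicate 3, the lowest of the 6, and reached 9.61% in Lmln-KO replicate 2.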

How the data were processed

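Per the labels' protocols, liver RNA depleted of ribosomal RNA went into directional libraries read from both ends. What the authors deposited are raw counts for each gene name. The header names featureCounts 2.0.1, run on Ensembl release 102 exons (GRCm38) without a paired-end or strand option. The submitters' processing notes name Subread 2.0.2 and edgeR 3.36.0. For the aligner, nothing is given in the sources used here.

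The test was edgeR 4.0.16 (R 4.3.3), its robust quasi-likelihood fit by genotype after TMM scaling. filterByExpr at its minimum count of 10 kept 18703 genes, with 99.8% of counts, and p was adjusted over all of them by Benjamini-Hochberg at 0.05. The SE is the size of the log2 difference over the square root of F. Inside a set, mean log2 CPM (prior count 2) was subtracted. DESeq2 1.42.0, limma-voom (limma 3.58.1), other scalings and filters, a replicate block, the sex-marker term and leaving out each library were alternatives. The steps were tested on simulated data. No 2 libraries agreed within sampling noise: chi-square over its degrees of freedom was 10.9 or more. The deposited exon length scaled levels between genes.

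The members, the 19 further lists and the tests were chosen with earlier results of these data known. The rule for names allowed the 10 members, Lmln, the first 3 tested genes of each list, the 2 with the smallest p, and the 6 genes most alike in pattern; not every gene it allowed is given. Pdpn, Ccl21a, Gp1bb, Flt1 and Notch4 were named outside it, the first 3 after their values were seen. The interaction test and the leave-one-out ranges of list medians were added after the data were seen.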

Additional observations from a re-analysis of the deposited data

Results flagged for a closer look

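The difference between genotypes had opposite signs in the libraries with Y-linked transcripts (Y set) and with Xist (Xist set), with no overlap inside either set, for 4 of the 10 genes: in the Y set both Lmln-KO libraries lay below the WT library, and in the Xist set the Lmln-KO library lay above both WT libraries. For Stab2 the log2 differences were -0.128 and 0.238, for Fcgr2b -0.0899 and 0.117, for Dnase1l3 -0.131 and 0.17, and for Kdr -0.149 and 0.154. Opposite signs of either kind, without overlap, were found in 18.2% of all tested genes, and this order of signs in 9.3%. The interaction test in edgeR gave unadjusted p of 0.201, 0.387, 0.231 and 0.206 for these genes in that order, and an adjusted p of 1 for each. All 4 share the same libraries, and Lmln-KO replicate 3, aged 39 weeks, enters the Xist set's difference in each of them. The set, the age and that single library cannot be told apart.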

How the results depend on the processing

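Of 170 fits of a single gene under other settings, 0 passed the threshold (smallest adjusted p 0.601), and 31 changed the sign of a difference, that of Lyve1 without WT replicate 3 among them. By setting, the changed signs were these. Upper-quartile scaling gave -0.0193 for Stab2 and -0.0241 for Dnase1l3, limma-voom -0.00662 and -0.0058, and the replicate block -0.0054 and -0.00498. The sex-marker term without Lmln-KO replicate 3 (chosen after seeing the data) gave -0.122 and -0.123 for the same genes. The filter of 1 CPM in all 6 libraries gave -0.00396 for Dnase1l3. For Fcgr2b the sex-marker term gave 0.0128, and 0.022 with DESeq2. For Kdr RLE scaling gave 0.00214, library totals 0.00185, DESeq2 0.00237, no filter 0.00943, the sex-marker term 0.00303, and that term with DESeq2 0.0123. Leaving out each library in turn moved Stab2 from -0.119 to 0.105, Lyve1 from -0.732 to 0.21, Clec4g from -0.0874 to 0.127, Fcgr2b from -0.236 to 0.00511, Dnase1l3 from -0.0699 to 0.0898, Kdr from -0.0652 to 0.0431 and Cdh5 from -0.0662 to 0.0192, while Stab1 (-0.199 to -0.049), Oit3 (-0.36 to -0.0671) and Pecam1 (-0.239 to -0.111) stayed negative in all of them. Of 70 named genes that are not among the 10, 24 changed sign when a single library was left out. The median of the 10 ran from -0.159 to 0.00379.

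Over all genes 0 were called in the main test, where 284 higher and 587 lower had an unadjusted p under 0.05; DESeq2 called 22, or 30 with the sex-marker term, and edgeR 3 with no filter, 1 with the replicate block and 1 with the sex-marker term. Leaving out single libraries gave 0 to 3, the 3 without WT replicate 1. Genes without overlap numbered 0 of 10 with library totals and 1 to 4 when single libraries were left out, the 4 (Stab1, Fcgr2b, Oit3 and Pecam1, all lower in Lmln-KO) without Lmln-KO replicate 3. Over all tested genes 8.89% to 14.3% were without overlap and lower in these fits, 13.4% without Lmln-KO replicate 3. With Flt1, Tek, Tie1, Notch4 and Dll4 in place of the lineage list, the general endothelial genes were 0.0782 higher in Lmln-KO relative to it, and the difference of the scavenging genes turned from -0.0262 to 0.0556. Dll4, among these replacements, itself had a difference of -0.74, and its part in the change was not tested.

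The labels do not say that replicate numbers pair the animals. Same-numbered libraries deviated together with r of 0.465, -0.311 and 0.405. Differently numbered ones reached 0.473 (Lmln-KO replicate 2 with WT replicate 1) and 0.490 (Lmln-KO replicate 3 with WT replicate 2). Every positive r joined libraries of the same set, Y or Xist, and every negative r crossed the sets. The numbers were not read as pairs, and the replicate block called 0 of the 10. With 3 libraries a group, the intervals given above describe single genes and are not limits of detection after adjustment. Lmln, with an interval of the log2 difference from -5.07 to -2.38, did not pass in edgeR either (adjusted p 0.933).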
